A study of Mus musculus with 19 samples.

Results

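DNA replication genes were followed in 19 mouse medulloblastomas that had been treated with a Smoothened antagonist or with vehicle. The set holds 43 genes, from the origin recognition complex to DNA ligase. Probe sets were taken by gene symbol in the platform annotation, and the genes were listed with earlier results of these data known. On the array these genes had 98 probe sets of their own, of 45037 probe sets and 18193 named genes in all. Of the 98, 93 probe sets passed a filter on low signal, and each of the 43 genes kept at least 1 of them. The 5 dim sets that did not pass belong to Tyms, with 2 of them, and to Mcm6, Cdt1 and Pola1. The 16 treated tumours came from mice dosed with NVP-LDE225, an antagonist of Smoothened, the membrane protein that passes on the Hedgehog signal. The dose was 40 mg/kg for 8 of them and 160 mg/kg for the other 8, and the labels call all 16 resistant. The 3 vehicle tumours are called sensitive. All 19 tumours shared the genotype Ptch+/-p53-/-, in which a copy of the Hedgehog receptor gene Ptch and both copies of p53 are lost. They grew under the skin of nude mice, which lack a thymus, after injection of cells dissociated from tumours of such mice. Treatment and resistance therefore differ together and cannot be told apart, and the labels name neither the time on drug nor a resistant tumour without drug. Dosing began some days after the cells had been placed in the flank. Each tumour was measured on 1 array, and the labels do not name separate donor tumours, so a p-value here speaks of the variation among these 19 arrays, which may be technical in part.

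Replication starts at origins that are licensed in G1. The origin recognition complex, Cdc6 and Cdt1 load the ring of Mcm2 to Mcm7 on DNA, and Mcm10, Cdc45 and the GINS complex turn the loaded ring into a running helicase in S phase. Primase and polymerase alpha start each new strand, polymerases delta and epsilon extend it on the sliding clamp Pcna, and Fen1 and Lig1 remove the primers and seal the nicks. In cerebellar granule neuron precursors, the cells from which Hedgehog-driven medulloblastoma arises, Hedgehog signalling drives division through cyclin D and Mycn, and E2F transcription factors switch on most of these genes as cells enter S phase.

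E2F words were looked for in the promoters of the replication genes. RefSeq promoter windows on GRCm38.p6, from 250 bases before to 50 bases after each start site, were given for 36 of the 43 genes, in 44 promoters. Both strands were searched for the 4 words TTTGGCGC, TTTCCCGC, TTTGCCGC and TTTCGCGC, which are forms of the E2F site. At least 1 word stood in 15 of the 44 promoters (34.1%), against 744 of all 32851 promoters (2.26%). The CCAAT word, also searched on both strands and contained in none of the E2F words, stood in 25 of the 44 promoters (56.8%), against 37.4% of all promoters. Sequences follow for 6 genes to which the results return, with E2F words of either strand in capitals. They are written 5′ to 3′ on the strand of the gene.
Mcm3, chr1:20820263-20820562, minus strand: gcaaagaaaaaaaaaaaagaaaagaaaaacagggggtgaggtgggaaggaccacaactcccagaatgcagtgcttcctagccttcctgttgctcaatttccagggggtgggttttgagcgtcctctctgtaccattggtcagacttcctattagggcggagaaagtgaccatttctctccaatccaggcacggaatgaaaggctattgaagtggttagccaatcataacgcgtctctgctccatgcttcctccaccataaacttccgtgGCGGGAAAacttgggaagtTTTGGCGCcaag
Mcm5, chr8:75109259-75109558, plus strand: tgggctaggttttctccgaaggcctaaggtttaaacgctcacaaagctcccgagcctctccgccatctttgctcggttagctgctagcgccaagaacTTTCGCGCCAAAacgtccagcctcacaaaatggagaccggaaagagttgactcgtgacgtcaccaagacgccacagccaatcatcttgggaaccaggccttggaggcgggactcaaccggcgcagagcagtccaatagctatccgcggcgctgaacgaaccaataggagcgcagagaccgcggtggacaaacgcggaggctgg
Mcm6, chr1:128359656-128359955, minus strand: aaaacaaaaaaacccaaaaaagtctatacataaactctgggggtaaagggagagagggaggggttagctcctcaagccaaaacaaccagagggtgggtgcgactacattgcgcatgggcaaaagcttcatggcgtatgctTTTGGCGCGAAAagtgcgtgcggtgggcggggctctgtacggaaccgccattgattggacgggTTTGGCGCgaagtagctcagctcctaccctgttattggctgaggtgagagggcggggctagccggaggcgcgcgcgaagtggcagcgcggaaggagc
Mcm7, chr5:138171834-138172133, minus strand: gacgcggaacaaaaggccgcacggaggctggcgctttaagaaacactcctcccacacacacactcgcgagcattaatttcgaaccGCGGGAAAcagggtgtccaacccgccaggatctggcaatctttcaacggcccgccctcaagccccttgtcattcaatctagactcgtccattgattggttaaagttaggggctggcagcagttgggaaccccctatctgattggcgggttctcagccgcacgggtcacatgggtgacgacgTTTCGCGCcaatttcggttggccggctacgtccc
Pola1, chrX:93632106-93632405, minus strand: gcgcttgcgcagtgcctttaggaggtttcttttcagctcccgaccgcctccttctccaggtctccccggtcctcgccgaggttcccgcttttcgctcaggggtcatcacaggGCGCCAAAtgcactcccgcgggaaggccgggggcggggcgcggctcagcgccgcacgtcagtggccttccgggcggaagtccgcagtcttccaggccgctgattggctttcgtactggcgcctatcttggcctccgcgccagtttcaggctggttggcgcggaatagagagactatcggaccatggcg
Pold3, chr7:100121453-100121752, minus strand: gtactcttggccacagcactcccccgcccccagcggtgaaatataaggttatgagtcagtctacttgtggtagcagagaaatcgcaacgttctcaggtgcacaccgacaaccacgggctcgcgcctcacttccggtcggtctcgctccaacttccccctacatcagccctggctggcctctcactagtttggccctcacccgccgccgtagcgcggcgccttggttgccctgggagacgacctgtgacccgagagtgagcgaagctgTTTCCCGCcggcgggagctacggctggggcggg
The Mcm6 window held 3 words, and its first 2 overlap in the letters gcgc, so that they form a longer stretch of capitals. The words of Mcm5 overlap in the same way. The printed Mcm3 and Mcm7 windows held 2 words each, and the Pola1 and Pold3 windows held 1 word each. Another Mcm7 window held no E2F word and is not printed. A match is a description of the letters and does not show that a factor binds there.

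The arrays had the same trimmed mean, but their median signal ran from 32.7 to 49.7. In the vehicle tumours it was 38.6, 33.5 and 49.7, so results are also given with array medians subtracted. The correlation between pairs of arrays lay between 0.878 and 0.968. The pair of arrays least like the others were 160 mg/kg tumour 2 and vehicle tumour 3. The 3′ to 5′ signal ratio of Gapdh, a sign of RNA quality, was 0.733 to 0.828 in treated tumours, against 0.80 to 0.827 in vehicle tumours, and 10 of 16 treated tumours lay below all vehicle tumours. The same ratio of Actb was 1.34 to 1.77 in treated tumours, against 1.57 to 1.76 in vehicle tumours, and 7 of 16 treated tumours lay below all vehicle tumours. It was lowest in 160 mg/kg tumour 8. Of 10 markers of granule neuron precursors, the labelled origin of the tumours, 160 mg/kg tumour 2 had the lowest signal of all 19 tumours for Atoh1, Barhl1, Barhl2 and Meis1. Atoh1, which defines dividing precursors, had 22.5 there, against 352.6 or more in the other 18 tumours. Other markers of the list were high in this tumour. Nhlh1, at 818.1, was the highest of all 19 tumours. Zic1, Neurod1 and Sox11, at 5903.4, 4933.1 and 3683.8, ranked 18, 17 and 17 of 19 from the lowest, and Zic2 and Pax6 ranked 11 and 4. Results are therefore given with and without this tumour where it moves them.

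The levels of nearly all replication genes lay somewhat lower in treated than in vehicle tumours, and the shift was small. Values are MAS5 signals, a linear brightness per probe set, and changes are differences of log2(signal + 2.5), which understate the change of dim genes. A gene is represented by its kept probe set with the highest mean, and levels of different probe sets are not set against each other. With the doses averaged and set against vehicle, 42 of 43 genes had a log2 change below 0, against 57.5% of all 13454 genes. The median change of the 43 genes was -0.27, or 17.4% lower signal, against a median of -0.06 over all genes. None of the 43 genes passed the test in limma at an adjusted p under 0.05 (0 of 43, against 5.29% of all genes). At an unadjusted p under 0.05, 17 of 43 genes were lower and 0 were higher, against 13.1% of all genes that were lower at that p. In a bulk tumour sample, fewer cells in S phase and less of each RNA per cell cannot be told apart. When each array's median was subtracted, 39 of 43 genes were below 0 with a median of -0.21, and the median of all genes moved to 0.01. With array weights estimated by limma, 28 of 43 genes passed the test, beside 30.6% of all genes (4121 of 13454), and the count ran from 0 to 5 in the other alternatives tried. Without 160 mg/kg tumour 2 it was 2 of 43. The share of all genes that passed in these other alternatives is not given.

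**Figure D1:**
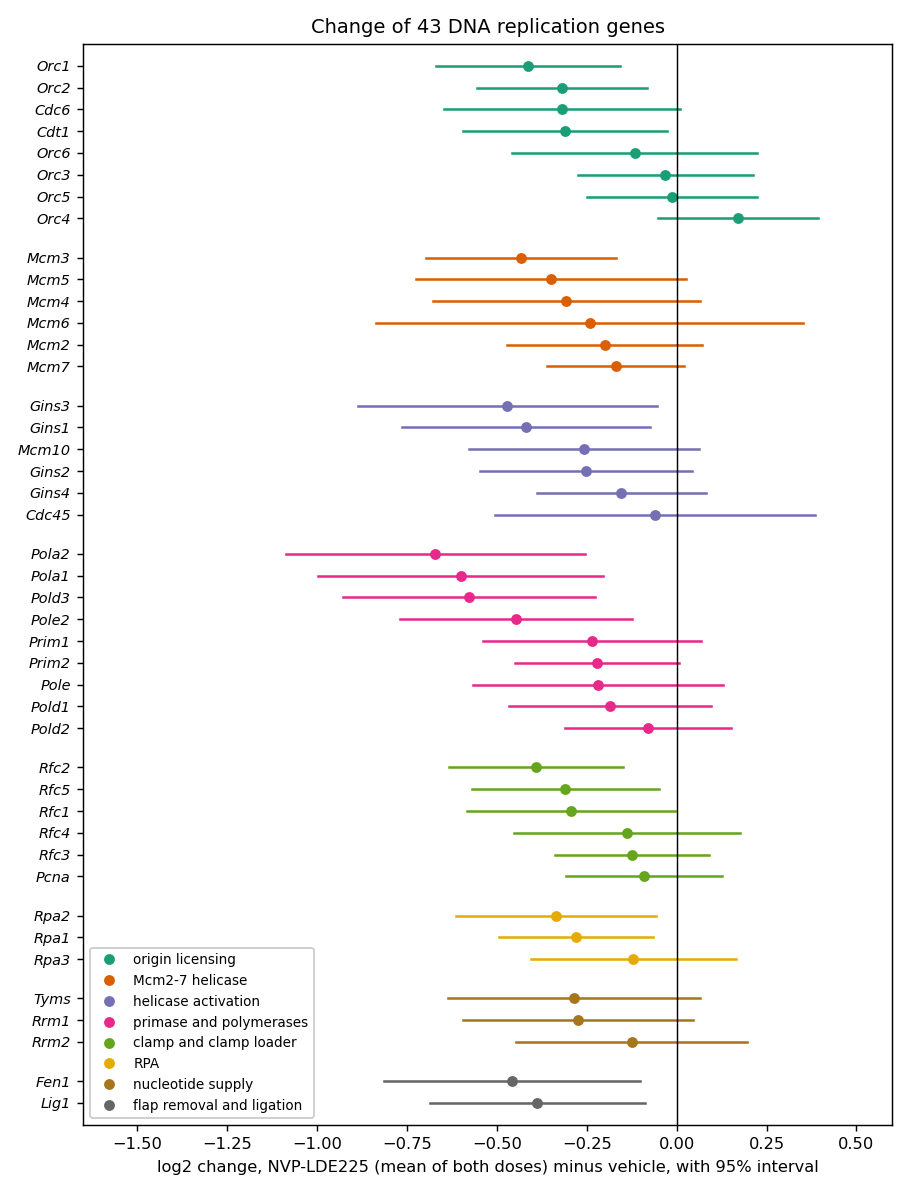
Log2 change of the 43 replication genes, NVP-LDE225 (mean of both doses) minus vehicle, with 95% intervals (16 treated and 3 vehicle tumours), grouped by role. 42 of 43 points lie below 0 and Orc4 lies above it, and no gene passed the test after adjustment over all genes.

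At the level of single probe sets, 5 of 93 passed the test and all 5 were lower, against 4.47% of all 31143 probe sets that passed in either direction and 1.83% that passed as lower. They belong to Prim2, Rpa1, Pold3, Mcm7 and Rfc2, and in each of these genes another probe set with a higher mean represents the gene and did not pass. Prim2 is the large subunit of primase, which makes the RNA primers. Its probe set 1418035_a_at had signals of 342.4, 298.4 and 403.5 in vehicle tumours, 203 to 287.7 (median 225.2) at 40 mg/kg and 154.8 to 283.7 (median 248.1) at 160 mg/kg. All 16 treated tumours lay below all 3 vehicle tumours. The signal fell by 33.6% (log2 change -0.59, SE 0.15, limma adjusted p = 0.0338). The probe set that represents Prim2 had a log2 change of -0.22 (adjusted p = 0.247).

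Rpa1 is the large subunit of RPA, the complex that coats single-stranded DNA. Its probe set 1423293_at had signals of 1147.2, 1261.8 and 1144.3 in vehicle tumours, 797.9 to 1036.5 (median 939.4) at 40 mg/kg and 718.5 to 1053.7 (median 879.9) at 160 mg/kg. The 16 treated tumours lay below all vehicle tumours, and the signal fell by 24.8% (log2 change -0.41, SE 0.11, limma adjusted p = 0.0304). The set that represents Rpa1 had signals of 2273.9, 2440.3 and 2032.3 in vehicle tumours, 1568.2 to 2147.2 (median 1943.05) at 40 mg/kg and 1549.1 to 2147.9 (median 1761.15) at 160 mg/kg, and a log2 change of -0.28 (adjusted p = 0.121). Of the treated tumours, 11 of 16 lay below all vehicle tumours for that set.

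Mcm7 is a subunit of the helicase ring. Its probe set 1439269_x_at had signals of 1380.1, 1401.2 and 1500.5 in vehicle tumours, 853.7 to 1262.9 (median 1043.65) at 40 mg/kg and 788.9 to 1172.8 (median 1000) at 160 mg/kg. The groups did not overlap, and the signal fell by 27.9% (log2 change -0.47, SE 0.11, limma adjusted p = 0.0204). The set that represents Mcm7 had signals of 4228.9, 4482.3 and 3559.4 in vehicle tumours, 3264 to 4134.2 (median 3751) at 40 mg/kg and 3135.6 to 4089.1 (median 3378.15) at 160 mg/kg. Its groups overlapped, with 8 of 16 treated tumours below all vehicle tumours and a log2 change of -0.17 (adjusted p = 0.290).

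Rfc2 is a subunit of the loader that places Pcna on DNA. Its dim probe set 1457638_x_at had signals of 116, 111.2 and 133.9 in vehicle tumours, 78.6 to 103.2 (median 87.4) at 40 mg/kg and 53.3 to 90.9 (median 74.75) at 160 mg/kg. It fell by 32.7% without overlap (log2 change -0.57, SE 0.15, limma adjusted p = 0.0299), and the set that represents the gene had a change of -0.39 (adjusted p = 0.0574). Between the doses, this dim set had a difference of -0.30 for 160 minus 40 mg/kg (95% interval -0.54 to -0.06, adjusted p = 0.674). Pold3 is an accessory subunit of polymerase delta. Its probe set 1426838_at had signals of 370.6, 386.8 and 400 in vehicle tumours, 231.2 to 334.8 (median 261.6) at 40 mg/kg and 206.2 to 351.5 (median 267.2) at 160 mg/kg. It fell by 29.3% without overlap (log2 change -0.50, SE 0.14), with a limma adjusted p of 0.04999, just under the threshold. The set that represents Pold3 had a change of -0.58 (adjusted p = 0.0533).

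All 16 treated tumours lay below all vehicle tumours for 8 of the 93 probe sets, against 2.01% of all probe sets, and for 2 of the 43 genes, Mcm3 and Pola1, against 2.53% of all genes. The count of 5 depended on the arrays used. Without vehicle tumour 1, 2 or 3 in turn, 0 probe sets passed, and without 160 mg/kg tumour 5 or tumour 3, 10 and 8 did. Without 160 mg/kg tumour 2 it was 6 of 93. With each array's median subtracted, 0 probe sets passed. The share of all probe sets that passed in these settings is not given, so these counts are not read as results about the members.

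**Figure D2:**
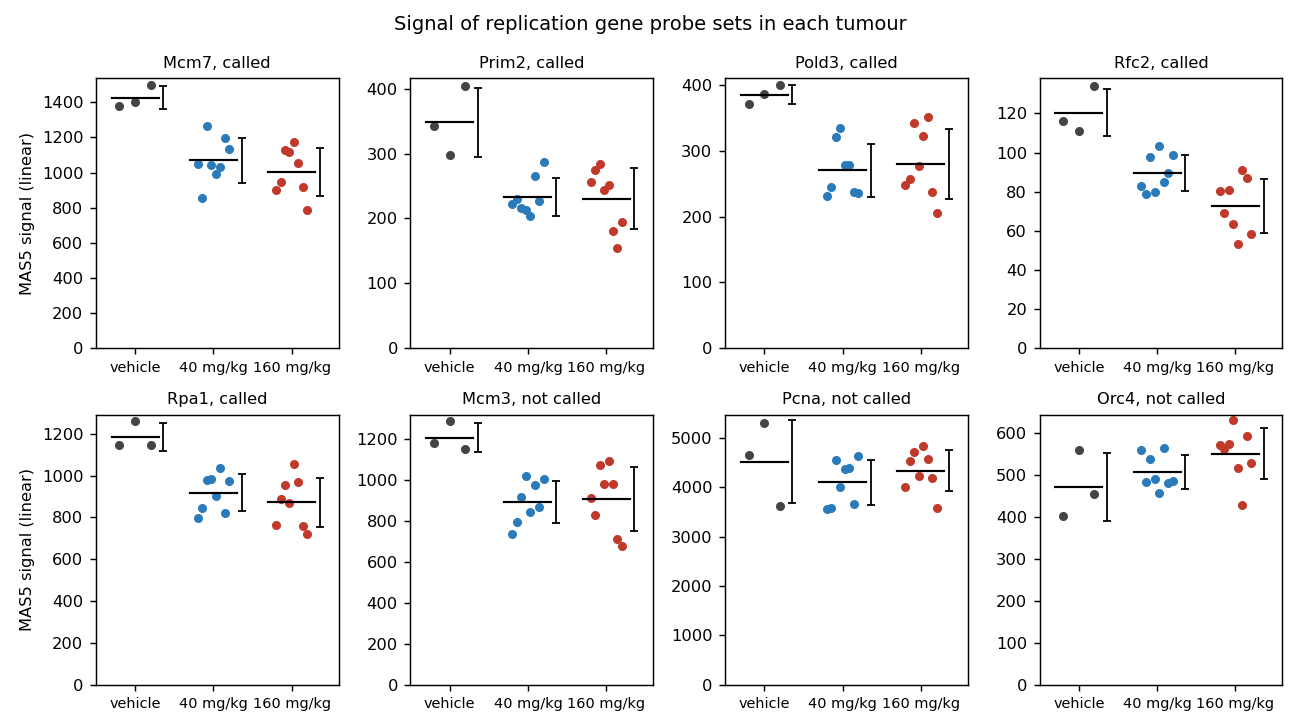
MAS5 signal of 8 probe sets in each tumour, by dose (points, 1 per tumour), with group means (lines) and SD (bars beside them). In the 5 called probe sets and in Mcm3 all 16 treated points lie below the 3 vehicle points, while Pcna and Orc4 overlap.

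Among the genes of origin licensing, 7 of 8 had changes below 0, with a median of -0.21, and 3 of 8 had an unadjusted p under 0.05. Of all genes, 57.5% were below 0 and 13.1% were lower at that p. These shares also apply to the counts of each role below, and the roles hold too few genes to be ranked by them. Cdt1, a loading factor, had signals of 1453.9, 1550.5 and 1364.7 in vehicle tumours, 1062.8 to 1522.8 (median 1205.3) at 40 mg/kg and 792.4 to 1404.8 (median 1195.1) at 160 mg/kg. Of the treated tumours, 13 of 16 lay below all vehicle tumours, with a log2 change of -0.31 (SE 0.14, adjusted p = 0.189). Orc1, the large subunit of the origin recognition complex, had signals of 69.2 to 101.0 (median 78.3) in treated tumours, against 118.4, 110.8 and 96.2 in vehicle tumours. Of the treated tumours, 15 of 16 lay below all vehicle tumours, with a change of -0.41 (SE 0.12, adjusted p = 0.0570). Cdc6, which works with Cdt1, had a change of -0.32 and Orc2 had -0.32 (adjusted p = 0.247 and 0.111), and Orc6 had -0.12.

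Of the origin recognition complex, Orc3, Orc4 and Orc5 stayed nearest to 0 or above it, while Orc1 and Orc2 were lower. Orc5 had signals of 420.5, 448.9 and 454.3 in vehicle tumours, 366.6 to 511.6 (median 440.8) at 40 mg/kg and 315.9 to 525.4 (median 434.2) at 160 mg/kg, a change of -0.01 (adjusted p = 0.959). Orc3 had signals of 298, 386.7 and 263.7 in vehicle tumours, 232.3 to 320.7 (median 303.1) at 40 mg/kg and 275.2 to 369.1 (median 321.35) at 160 mg/kg, a change of -0.03 (adjusted p = 0.901). In both genes treated and vehicle tumours overlapped, and the sign turned under some alternatives, such as subtracting array medians. Orc4 had signals of 402.3, 560.9 and 454.3 in vehicle tumours, 456.9 to 566.2 (median 489) at 40 mg/kg and 428.9 to 631.6 (median 567.1) at 160 mg/kg, and its change of 0.17 was above 0 (adjusted p = 0.365). Orc3 and Orc4 each had kept probe sets of both signs.

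All 6 genes of the Mcm2 to Mcm7 ring had changes below 0, with a median of -0.27. Of the 6, 1 gene, Mcm3, had an unadjusted p under 0.05, near the share of all genes that were lower at that p (13.1%). Mcm3 had signals of 678.0 to 1093.7 (median 916) in treated tumours, against 1182.4, 1287.6 and 1153.9 in vehicle tumours. All 16 treated tumours lay below the vehicle tumours, and the log2 change was -0.43 (SE 0.13, adjusted p = 0.0539). Mcm5 had a change of -0.35, Mcm4 of -0.31 and Mcm2 of -0.20 (adjusted p = 0.267, 0.323 and 0.381).

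Of the genes that turn the ring into a helicase, all 6 were below 0 with a median of -0.25, and 2 of 6, Gins1 and Gins3, had an unadjusted p under 0.05. Gins4, a GINS subunit, had signals of 488.3, 543.8 and 404 in vehicle tumours, 380.6 to 474.1 (median 420.95) at 40 mg/kg and 356.7 to 531.2 (median 423) at 160 mg/kg. The groups overlapped, with a log2 change of -0.15 (adjusted p = 0.440). The GINS subunits Gins3, Gins1 and Gins2 had -0.47, -0.42 and -0.25 (adjusted p = 0.176, 0.147 and 0.309). Mcm10, which helps to activate the helicase, had -0.26 and Cdc45, which travels with it, had -0.06. In Mcm10 the changes of its kept probe sets ran from -0.33 to 0.53.

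The most negative changes of the 43 genes were those of the polymerase alpha subunits. All 9 genes of primase and the polymerases were below 0, with a median of -0.24, and 4 of 9 had an unadjusted p under 0.05. Pola2, the regulatory subunit of polymerase alpha, had signals of 378.7, 381.2 and 297.1 in vehicle tumours, 172 to 285 (median 225.05) at 40 mg/kg and 135.6 to 339.2 (median 213.95) at 160 mg/kg. Its log2 change was -0.67 (SE 0.20, adjusted p = 0.0576), and 15 of 16 treated tumours lay below all vehicle tumours. Pola1, the catalytic subunit, had signals of 382.5, 505 and 436 in vehicle tumours, 242.8 to 370.4 (median 295.6) at 40 mg/kg and 180.4 to 371.2 (median 292.35) at 160 mg/kg. All 16 treated tumours lay below the vehicle tumours, with a change of -0.60 (SE 0.19, adjusted p = 0.0730).

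Prim1, the catalytic subunit of primase, had signals of 1046.4, 1201.9 and 910 in vehicle tumours, 723.1 to 976.5 (median 814.9) at 40 mg/kg and 651.7 to 1239.1 (median 958.25) at 160 mg/kg. Its groups overlapped, with a change of -0.24 (adjusted p = 0.357). Pole2, the accessory subunit of polymerase epsilon, had -0.45 (adjusted p = 0.10), and the catalytic subunits Pole and Pold1 had -0.22 and -0.19 (adjusted p = 0.457 and 0.436). Pold2, an accessory subunit of polymerase delta, was nearest to 0 in this role, at -0.08.

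The sliding clamp and its loader were all below 0, 6 of 6, with a median of -0.22, and 3 of 6 had an unadjusted p under 0.05. Pcna, the clamp, is also used in DNA repair. It had signals of 4662.8, 5297.6 and 3614.6 in vehicle tumours, 3571 to 4643.9 (median 4185.05) at 40 mg/kg and 3581.1 to 4841.8 (median 4385.15) at 160 mg/kg. The groups overlapped, and the log2 change was -0.09 (95% interval -0.31 to 0.13, adjusted p = 0.638). The loader subunits Rfc5 and Rfc1 had -0.31 and -0.29 (adjusted p = 0.154 and 0.227), and Rfc3 and Rfc4 had -0.12 and -0.14. All 3 RPA subunits were below 0, with the middle subunit Rpa2 at -0.34 (adjusted p = 0.149) and the small subunit Rpa3 at -0.12.

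Of the genes for nucleotide supply, 3 of 3 were below 0 and 0 of 3 had an unadjusted p under 0.05. Rrm2, the small subunit of the enzyme that makes deoxynucleotides, had signals of 2381.3, 2628.9 and 2317.6 in vehicle tumours, 1618.4 to 2649.8 (median 2244.1) at 40 mg/kg and 1612.6 to 3020.1 (median 2426.35) at 160 mg/kg, and a change of -0.13 (adjusted p = 0.663). Its groups overlapped. Rrm1, the large subunit, had -0.27 (adjusted p = 0.304), and both genes had kept probe sets of both signs. Tyms, which makes the thymidine nucleotide, had -0.29 (adjusted p = 0.331) on a dim probe set, since a brighter set is shared with a pseudogene in the annotation and was left out. Fen1, which cuts the displaced primer flap, had signals of 669.9, 754.7 and 630.3 in vehicle tumours, 481.9 to 655 (median 506.65) at 40 mg/kg and 332.5 to 676.4 (median 400.65) at 160 mg/kg. Of the treated tumours, 12 of 16 lay below all vehicle tumours, with a change of -0.46 (adjusted p = 0.126). Lig1, the ligase, had -0.39 (adjusted p = 0.123). Of the 32 genes with several kept probe sets, 27 had all of them below 0 and 5 had sets of both signs.

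The 2 doses gave like values for the set. At 40 mg/kg against vehicle the median change was -0.27 with 42 of 43 genes below 0, against 56.2% of all genes. At 160 mg/kg against vehicle it was -0.27 with 40 of 43 below 0, against 58.1% of all genes, and with array medians subtracted 35 of 43 were below 0. These comparisons share the 3 vehicle tumours. At 40 mg/kg 0 of 43 genes (against 2.55% of all genes) and 0 of 93 probe sets (against 2.14%) passed, with 15 genes lower at an unadjusted p under 0.05, against 11.4% of all genes. At 160 mg/kg 0 of 43 genes (against 4.89%) and 4 of 93 probe sets (against 4.05%) passed, namely those of Prim2, Rpa1, Mcm7 and Rfc2, with 16 genes lower at an unadjusted p under 0.05, against 12.8% of all genes. For 160 against 40 mg/kg 0 of 43 genes passed in limma (against 0% of all genes), 21 of 43 were below 0 (against 54.6%, and 13 of 43 with array medians subtracted), and the median difference was 0.01. At an unadjusted p under 0.05 it was 1 of 43 genes, against 7.41% of all genes. That gene was Rfc4, a small subunit of the clamp loader. Its mean signal was 429 ± 89.8 in the 8 tumours of the higher dose and 347 ± 45.3 in the 8 of the lower dose (± SD), a log2 difference of 0.29 (95% interval 0.04 to 0.54, adjusted p = 0.689). The intervals of the other 42 genes for this difference include 0, which does not show that the doses act alike.

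Single tumours varied within each dose. In each array the median over the 43 genes was taken relative to the vehicle means. It ran from -0.63 to -0.03 in the 16 treated tumours, against -0.12 to 0.10 in the 3 vehicle tumours, and 13 of 16 treated tumours lay below all vehicle tumours. The median over all genes ran from -0.09 to -0.02 in treated tumours, against -0.04 to 0.04 in vehicle tumours. Tumour 8 of the 160 mg/kg group was lowest, at -0.63, and held the lowest of all 19 values in 21 of the 43 genes. Tumour 5 of the same group was highest among treated tumours, at -0.03, and held the highest treated value in 13 genes. Among the 16 treated tumours the SD of log2 signal had a median of 0.24 over the 43 genes, against 0.31 over all genes. It was smallest in Rfc3, at 0.14, and largest in Mcm6, at 0.53.

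**Figure D3:**
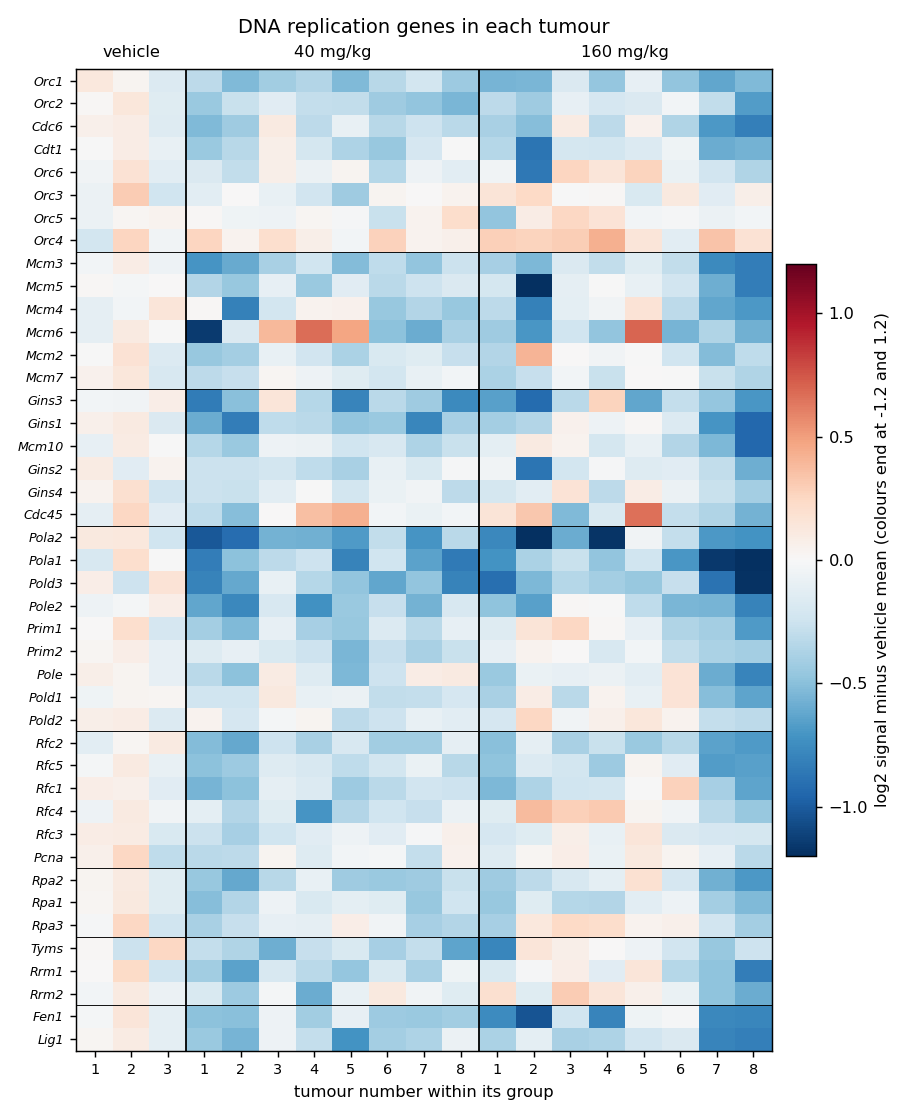
Log2 signal of each replication gene in each of 19 tumours, minus the vehicle mean of the gene, with genes grouped by role and tumours by dose. Blue is lower and red is higher than the vehicle mean: 160 mg/kg tumour 8 is blue in 41 of 43 rows, and the Mcm6 row holds 4 red treated tumours.

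Mcm6 was high in 4 treated tumours. Its signals were 1258.2 to 4519.1 (median 2101) in treated tumours, against 2579.8, 3010.4 and 2783.5 in vehicle tumours. The 4 highest were 4519.1 in 160 mg/kg tumour 5 and 4442.2, 3877.9 and 3656.8 in 40 mg/kg tumours 4, 5 and 3. All 4 lay above the vehicle tumours, while the other 12 treated tumours, at 2472.5 or less, lay below them. The log2 change of Mcm6 over all treated tumours was -0.24 (SE 0.28, adjusted p = 0.646). A dimmer Mcm6 probe set had 3914.3 in 160 mg/kg tumour 5 and 3445.6, 3075.3 and 2235.0 in 40 mg/kg tumours 4, 5 and 3, against 1987.9 to 2471.1 in vehicle tumours. In that probe set 3 of the 4 lay above the vehicle tumours, and 40 mg/kg tumour 3 lay within their range.

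Genes that lie beside Mcm6 on chromosome 1 were then examined, after these values had been seen. Of the 10 measured genes on either side, 4 of 20 had the same 4 highest treated tumours as Mcm6, against 27 of 13390 genes with a place on a chromosome (0.202%) and 0 of the other 42 replication genes. At least 3 of the 4 tumours were shared by 13 of the 20 genes, against 3.91% of all genes. The 4 genes were Zranb3, R3hdm1, Ubxn4 and Cxcr4, the last a chemokine receptor of granule neuron precursors. Ubxn4, next to Mcm6, had 1809.2 in 160 mg/kg tumour 5 and 2041.1, 1356.6 and 851.4 in 40 mg/kg tumours 4, 5 and 3, against 514.0, 536.3 and 511.8 in vehicle tumours. In the other 12 treated tumours it had at most 625.8. DNA copy number was not measured here, and its part was not tested.

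Gli2, a transcription factor of the Hedgehog pathway, lies on the same chromosome. In the 4 tumours it had 1348.0 in 160 mg/kg tumour 5 and 2501.6, 1949.6 and 1919.0 in 40 mg/kg tumours 4, 5 and 3. The vehicle tumours had 572.8, 630.7 and 645.1. Other tumours had as much Gli2 with less Mcm6. In 160 mg/kg tumour 2 Gli2 had 4325.8 and Mcm6 1719.7, and in 40 mg/kg tumour 1 they had 1984.5 and 1258.2. In 40 mg/kg tumours 2 and 7 Gli2 had 1909.7 and 1933.7, and in the remaining treated tumours 388.0 to 757.5.

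**Figure D4:**
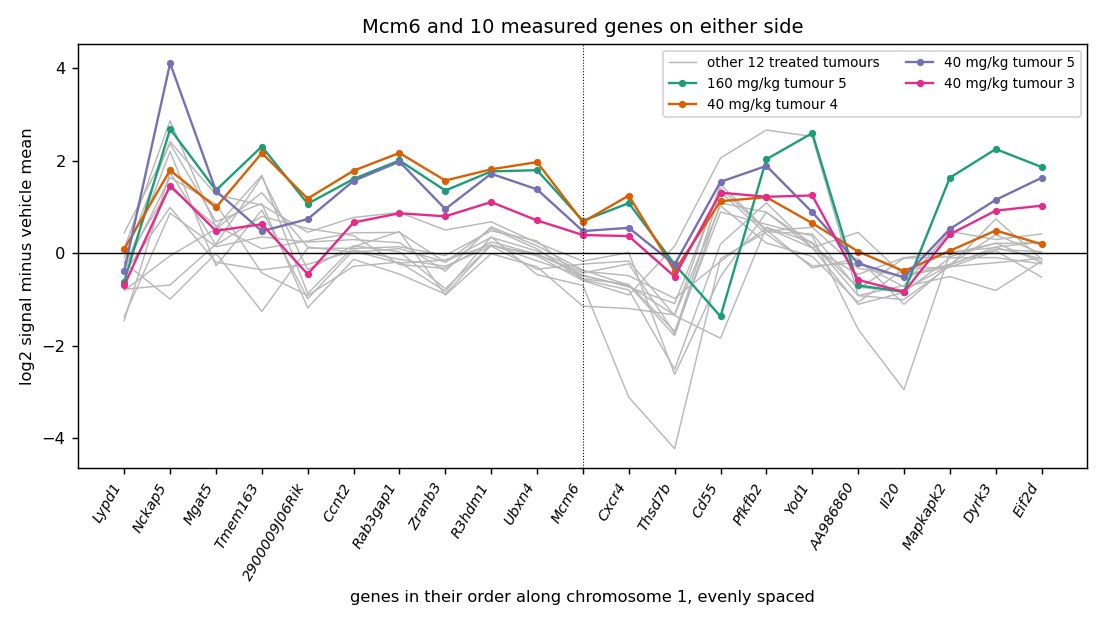
Log2 signal minus the vehicle mean for Mcm6 and 10 measured genes on either side, in their order along chromosome 1, for 16 treated tumours (lines; the 4 tumours with the most Mcm6 in colour, chosen by that value). The 4 coloured lines lie above the 12 others at Zranb3, R3hdm1, Ubxn4, Mcm6 and Cxcr4, and are mixed with them at Lypd1, Cd55 and AA986860.

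Replication genes on chromosome 8 were low together in 1 tumour, 160 mg/kg tumour 2, a pattern noticed after the values had been seen. Of 6 such genes, 5 had their lowest signal of all 19 arrays there, namely Mcm5, Orc6, Cdt1, Gins2 and Gins3. Mcm5 had 947.9 in this tumour, against 1310.0 or more in the other treated tumours and 2301.7 or more in vehicle tumours. Cdt1, which loads the ring, had 792.4, against 963.3 or more in other treated and 1364.7 or more in vehicle tumours. Orc6 had 328.4, against 464.0 or more in other treated and 547.2 or more in vehicle tumours. Gins4, also on chromosome 8, had 434.8, which was in the middle of the 19 arrays.

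Other genes of chromosome 8 were low in the same tumour. Of 707 of them, 340 had their lowest value in this tumour (48.1%), with a median of -0.54 relative to the median of the 19 arrays. On all other chromosomes it was 1450 of 12640 genes (11.5%), with a median of 0, and 3 of 37 replication genes (8.11%). Copy number was not measured here, and its part was not tested. Chromosome 19 was lower in the same tumour, with a median of -0.42 over 459 genes that are no members and of -0.68 over its 2 members, Pola2 and Fen1. In 160 mg/kg tumour 4 these medians were -0.37 and -0.47. Without tumour 2 the log2 change over both doses was -0.29 for Mcm5, -0.06 for Orc6 and -0.62 for Pola2, against -0.35, -0.12 and -0.67 with it. Pola2 then passed the test (adjusted p = 0.0465).

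**Figure D5:**
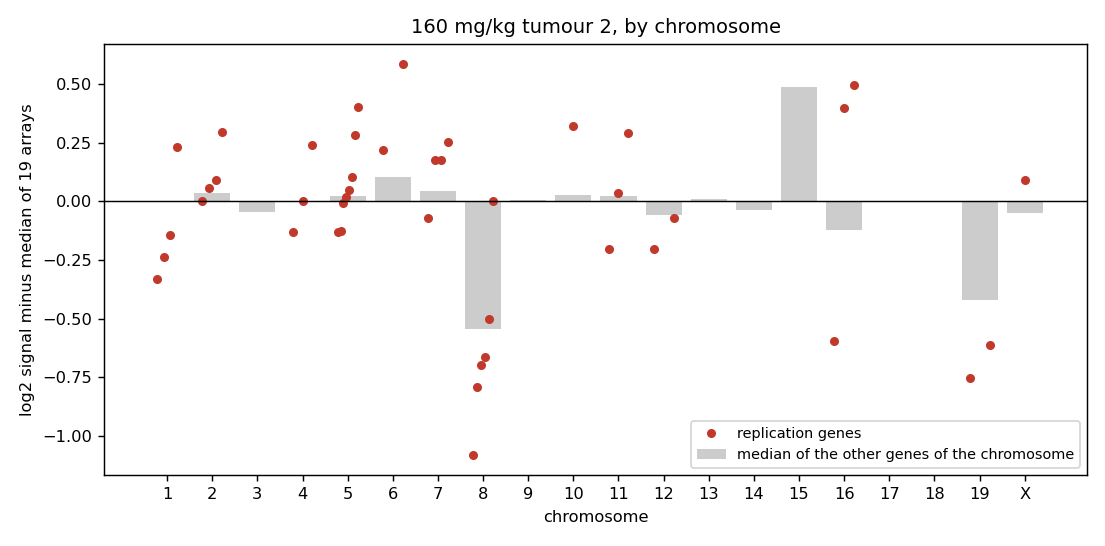
Log2 signal in 160 mg/kg tumour 2 minus the median of all 19 arrays, by chromosome, for replication genes (points) and for all other genes of the chromosome (bars, median). The bars of chromosomes 8 and 19 lie at -0.54 and -0.42, with 5 of 6 and 2 of 2 points at -0.50 or below, and the bar of chromosome 15, which holds no member, lies at 0.49.

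Genes that control S phase were measured beside the set. This list and the marker lists below were chosen with earlier results of these data known. A list of 50 S phase and replication control genes, which shares no gene with the 43, had 48 measured members, of which 4 fell and 0 rose in limma, against 2.45% of all genes that were called lower. Below 0 were 45 of 48, against 57.5% of all genes, with a median of -0.30, against -0.06 over all genes. Mcm9, a helicase of recombination repair, had 68.4 to 138.2 (median 93.1) in treated tumours, against 151.1 to 171.0 in vehicle tumours, and fell by 0.80 (log2 units, SE 0.16, limma adjusted p = 0.00898). Rbl1, a repressor of E2F target genes related to Rb, fell by 0.58 (adjusted p = 0.0187). Rnaseh2c and Rnaseh2a, subunits of the enzyme that cuts RNA from DNA, fell by 0.61 and 0.53 (adjusted p = 0.0428 and 0.0465). All 16 treated tumours lay below the vehicle tumours for Mcm9, Rbl1 and Rnaseh2c, and 15 of 16 did for Rnaseh2a. The genes next in order of p were Ccne2, an E-type cyclin that drives entry into S phase, at -0.60, E2f7 at -0.52, E2f2 at -0.68 and Tk1, a thymidine kinase, at -0.59 (limma adjusted p = 0.0519, 0.0657, 0.0701 and 0.0805).

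Markers of mitosis were closer to 0. Of 19 measured genes 1 fell, Kif11, a spindle motor (log2 change -0.53, limma adjusted p = 0.0494), against 2.45% of all genes called lower. Below 0 were 14 of the 19, against 57.5% of all genes, with a median of -0.16. The next in order of p were the spindle checkpoint kinase Bub1b at -0.30, the mitotic kinase Aurkb at -0.28, Ube2c at 0.28 and the kinetochore gene Cenpf at -0.51 (limma adjusted p = 0.0947, 0.192, 0.294 and 0.310). Mki67, a marker of cycling cells, had -0.22. The list median per tumour ran from -0.55 in 160 mg/kg tumour 8 to 0.20 in treated tumours, against -0.11 to 0.20 in vehicle tumours.

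Markers of other cells moved beside these genes. The marker lists were chosen with earlier results of these data known, so a share above that of all genes is no independent evidence. Of 9 measured markers of maturing neurons 6 rose (Dcx, Rtn1, Stmn2, Gap43, Map2 and Tubb3), against 2.84% of all genes called higher, with a summed signal of 5207 to 11374 in treated tumours, against 3005 to 4012 in vehicle tumours. Of 10 granule neuron precursor markers 3 rose (Sox11, Neurod1 and Zic1), with sums of 11794 to 19801 in treated tumours, against 10114 to 10982 in vehicle tumours. The sums weigh bright genes most. Members of the precursor list moved in both directions, so its sums are no measure of the number of precursors. Of the 10 markers 4 had changes below 0, with a median of 0.17, and the list median per tumour ran from -0.42 in 160 mg/kg tumour 3 to 0.61 in treated tumours, against -0.03 to 0.02 in vehicle tumours. Atoh1 had signals of 22.5 to 1954.3 (median 881) in treated tumours, against 1196.4 to 1422.4 in vehicle tumours (log2 change -0.87, limma adjusted p = 0.507). No marker of muscle, fibroblast, macrophage, endothelial, fat, skin or red blood cells passed the test (0 called in each list). The sums of the 3 skin markers were 299 to 5330 in treated tumours, against 5193 to 5929 in vehicle tumours, and those of 10 muscle markers were 296 to 17575 in treated tumours, against 1513 to 4001 in vehicle tumours. No lymphocyte marker passed the filter. The part of these cells and of RNA quality in the shift of the replication genes was not tested.

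The changes were also set out by promoter words, without a test. The 15 genes with an E2F word in a promoter window were all below 0, with a median log2 change of -0.35, and of the 21 genes with a window and no word 20 were below 0, with a median of -0.24. The 7 genes without a window were Mcm4, Pole, Gins1, Gins2, Gins4, Rfc2 and Prim2.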

How the data were processed

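Total RNA of each tumour was labelled as biotinylated cRNA and hybridised to an Affymetrix mouse expression array, per the labels' protocols. The deposited values are MAS5 signals, a linear intensity per probe set, and MAS5 is the tool named in the submitters' processing notes; a 2% trimmed mean of 150 on all 19 arrays was found in the values. Depth has no meaning for arrays, whose number limits the precision. Of 45101 rows, 64 control rows were left out. Of 45037 probe sets, 34945 had 1 gene symbol, 932 had several and were not named, and 9160 had none. No column was left unmapped (0).

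Values were analysed as log2(signal + 2.5), where 2.5 is the 10th percentile of all values, for probe sets that exceeded the array's 40th percentile on 3 or more arrays. limma 3.58.1 in R 4.3.3 fitted 3 group means with a variance trend (16 residual degrees of freedom) for 4 comparisons. P-values were adjusted by the Benjamini-Hochberg method over all 31143 kept probe sets in each comparison, at a threshold of 0.05. Python 3.11.15 with pandas 2.3.3 joined chromosomes and promoters. The fit was tested on simulated data.

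The members and lists were chosen with earlier results of these data known. Every member is accounted for. Full values are given for genes with a called probe set, the genes with the 2 largest and 2 smallest changes, and the gene with the highest mean signal in each role; of other lists, called genes and up to 4 more by p. Values of Mcm3, Mcm5, Mcm6, Orc1, Orc4, Rfc4 and of single tumours were added after they had been seen. Alternatives changed the scaling, pseudocount, filter, variance model, array weights, gene summary and arrays used. Replicate numbers were checked as pairs and did not pair the samples.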

Additional observations from a re-analysis of the deposited data

Results flagged for a closer look

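In 86 sets of 8 values, 1 for each of the 43 genes at each dose, the highest or lowest tumour was set against its group, and 3 lay apart by Dixon's criterion at the 95% level, taken on log2 values. Chance alone flags about 1 in 20 such sets. The Mcm6 signal was 4519.1 in 160 mg/kg tumour 5, above the other 7 tumours of that dose. The Orc5 signal was 315.9 in 160 mg/kg tumour 1, below the others of that dose. The Rfc4 signal was 255.2 in 40 mg/kg tumour 4, below the others of that dose. On the linear scale the gap over the range was 0.769 for Mcm6, 0.501 for Orc5 and 0.504 for Rfc4, and only Mcm6 of these 3 met the criterion.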

How the results depend on the processing

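The median change of the 43 genes for both doses stayed between -0.29 and -0.22 when each array was left out in turn. Without vehicle tumour 2, 38 of 43 genes were below 0, and the median over all genes was -0.08. Without any other array the count below 0 was 41 or 42. Counts of genes passing for both doses, 40 and 160 mg/kg were 2, 1 and 3 after quantile normalization, with 8, 3 and 8 probe sets, and 28, 25 and 21 with array weights, with 52, 51 and 40 probe sets. Array weights also raised the share of all genes called, to 30.6%, 25.7% and 21.3%, and of all probe sets, to 28.6%, 23.9% and 19.7%. With array medians subtracted, 0 probe sets passed for both doses and 1 at 160 mg/kg. The filter at the 60th percentile gave 5 genes and 10 probe sets for both doses and 3 and 7 at 160 mg/kg. The mean of a gene's kept probe sets gave 2 genes for both doses and 2 at 160 mg/kg. Without a variance trend, 1 gene passed for both doses and 2 probe sets at 160 mg/kg. With only the compared groups in the fit, 3 genes and 9 probe sets passed at 40 mg/kg and 1 probe set at 160 mg/kg. Without 160 mg/kg tumour 2 and vehicle tumour 3 together, an alternative chosen after seeing the data, 0 probe sets passed for both doses and 0 at 160 mg/kg. Apart from array weights, the shares of all genes and probe sets that passed are not given for the alternatives in this section. Their counts are therefore not read as results about the members.

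Leaving out each array in turn gave 0 to 4 genes and 0 to 10 probe sets for both doses, 0 to 1 probe sets at 40 mg/kg, and 0 to 6 genes and 0 to 11 probe sets at 160 mg/kg. Without 160 mg/kg tumour 2 they were 2 genes and 6 probe sets for both doses, and 1 gene and 5 probe sets at 160 mg/kg. The highest counts came without 160 mg/kg tumour 5; without tumour 3 of that dose they were 3 genes and 8 probe sets for both doses, and without tumour 6, 3 genes and 7 probe sets at 160 mg/kg. At 160 mg/kg, 0, 1 and 0 probe sets passed without vehicle tumours 1, 2 and 3.

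Changes near 0 turned sign. Orc3 had 0.035 with array medians subtracted and 0.062 with the mean of probe sets. Orc5 had 0.054 with array medians subtracted, 0.015 with array weights and 0.00034 without the pair of arrays least like the others, and Cdc45 had 0.0072 with array medians subtracted. With each array left out in turn, Orc3 had -0.15 to 0.12, Cdc45 -0.13 to 0.064, Pcna -0.24 to 0.032 and Rpa3 -0.24 to 0.0050, and these 4 were above 0 without vehicle tumour 2. Orc5 then had -0.047 to 0.020, and was above 0 without vehicle tumour 3 (0.0080), 40 mg/kg tumour 6 (0.0046) or 160 mg/kg tumour 1. The cause was not tested.

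With the replicate block, 1 gene and 2 probe sets passed for both doses and 1 gene and 2 probe sets at 160 mg/kg, and Orc3 had 0.030. Over 14 same-numbered pairs the correlation of deviations was -0.13 to 0.09, so the numbers name the samples and do not pair them.

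The 3 vehicle arrays limit the precision of every comparison with vehicle.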
